A study of Arabidopsis thaliana with 2 samples.

Results

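Starch genes of Arabidopsis thaliana were examined for binding of CCA1, a MYB-family DNA-binding protein at the core of the circadian clock. The set holds 41 genes of 27444 nuclear protein-coding genes, chosen by locus identifier as genes of starch synthesis and breakdown. Not every product is an active enzyme of the plastid. The choice was made with earlier results of these data known. The set's shares beside those of all genes are therefore a description only. It covers the enzymes of ADP-glucose supply, chain elongation, branching and debranching, glucan phosphorylation and dephosphorylation, amylases, phosphorylases, disproportionating enzymes and the maltose exporter. All 41 were found in the gene table.

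Leaves store part of the carbon fixed by day as starch granules in the chloroplast and consume the store at night. Synthesis runs from hexose phosphates through ADP-glucose to branched glucan chains. Breakdown starts with phosphorylation of the granule surface, which opens it to beta-amylases and debranching enzymes, and ends with export of maltose to the cytosol. The pace of nightly breakdown is known to depend on the circadian clock, and CCA1 is most abundant around dawn.

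The data are chromatin immunoprecipitation sequencing (ChIP-seq) peak lists from 2 libraries, 1 read on an Ion PGM (IonPGM) and 1 on an Illumina GAII (Illumina). Both libraries came from whole Col-0 seedlings of 14 days, which were cca1 lhy double mutants expressing CCA1 with a FLAG tag from the CCA1 promoter (CCA1pro:CCA1-FLAG). The anti-FLAG antibody therefore recovered tagged CCA1 in plants that carry both mutations. Seedlings were kept at 22 °C in 12 h of light and 12 h of darkness on medium with 2% sucrose, and were fixed 1 h after the lights came on. The IonPGM list held 2901 peaks and the Illumina list 2954. With 1 library per sequencer no value has a replicate error, no difference between sequencers could be tested, and library kit, sequencer and any difference between plants cannot be told apart. Whether both libraries used the same precipitated DNA is not given in the sources used here, and neither is read depth, so no interval or detection limit was set on any peak.

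A gene was counted when a peak overlapped the gene extended by 1000 bp on both sides by at least 1 bp. Where an IonPGM and an Illumina peak overlapped each other and both reached this window, the bases they have in common form a shared segment. Peak strength is given as the percentile of the authors' peak score within its own list, from 0 to 100, because its scale is not stated. The gene table holds no strand, so the ends of a gene are called its low-coordinate and high-coordinate end, and which of them is the transcription start was not assigned.

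CCA1 peaks lay at a larger share of the starch genes than of all genes in each list, and 13 starch genes carried a site found with both sequencers. An IonPGM peak was found at 18 of 41 starch genes (43.9%), against 12.1% of all protein-coding genes. An Illumina peak was found at 23 of 41 (56.1%), against 12.7% of all genes. A shared segment was found at 13 of 41 (31.7%), against 6.56% of all genes. Peaks of either list reached 26 of 41 starch genes (63.4%), against 17.7% of all genes. Of these, 8 (19.5%) had Illumina peaks only, against 5.63% of all genes, 3 (7.32%) had IonPGM peaks only, against 4.99%, and 2 (4.88%) had peaks of both lists that did not overlap, against 0.528%. The other 15 starch genes had no peak of either list in the window.

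Starch genes are long, with a median length of 3922 bp against 2078 bp for all genes, and a longer gene offers a wider window. Among the 3460 genes of at least that median length, a length limit set after the counts were seen, 13.9% had an IonPGM peak, 15.7% an Illumina peak and 7.72% a shared segment. A second list held 17 starch-related genes outside the set. It includes further genes of the same families (APS2, SS5 and BE1), whose enzyme activity was not considered here. It also includes genes for granule-protein targeting factors, plastid sugar translocators and cytosolic phosphoglucomutases. This second list had an IonPGM peak at 1 gene (5.88%), an Illumina peak at 2 (11.8%) and a shared segment at 0. Peaks of either list reached 3 of the 17 (17.6%), near the 17.7% of all genes, and the list is short. Its peaks were at TPT, the triose phosphate translocator of the chloroplast (IonPGM, percentile 40.0, inside the gene), at PTST3 (Illumina, percentile 3.77, across an end) and at MRC (Illumina, percentile 7.23, across an end).

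**Figure D1:**
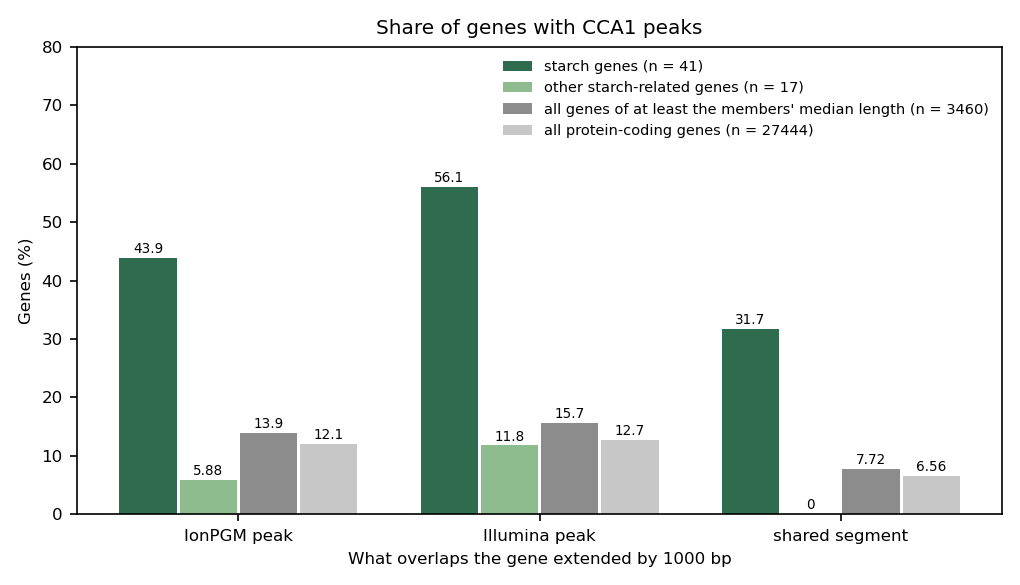
The bars give the percentage of genes (vertical axis) whose window of the gene plus 1000 bp on both sides held an IonPGM peak, an Illumina peak or a shared segment. Starch genes stand at 43.9%, 56.1% and 31.7%, against 12.1%, 12.7% and 6.56% of all protein-coding genes.

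By pathway arm the shares were close. The breakdown arm includes the inactive BAM4 and BAM9, BAM5, which is found outside the plastid, and BAM7, a nuclear protein. Of 25 breakdown genes 8 (32.0%) had a shared segment and 15 (60.0%) had any peak. Of 16 synthesis genes 5 (31.25%) had a shared segment and 11 (68.75%) had any peak. Over all genes 6.56% had a shared segment and 17.7% any peak. Among the 3460 genes of at least the set's median length the shares were 7.72% and 21.4%. The families within the arms hold 1 to 9 genes, too few to set their shares against each other.

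**Figure D2:**
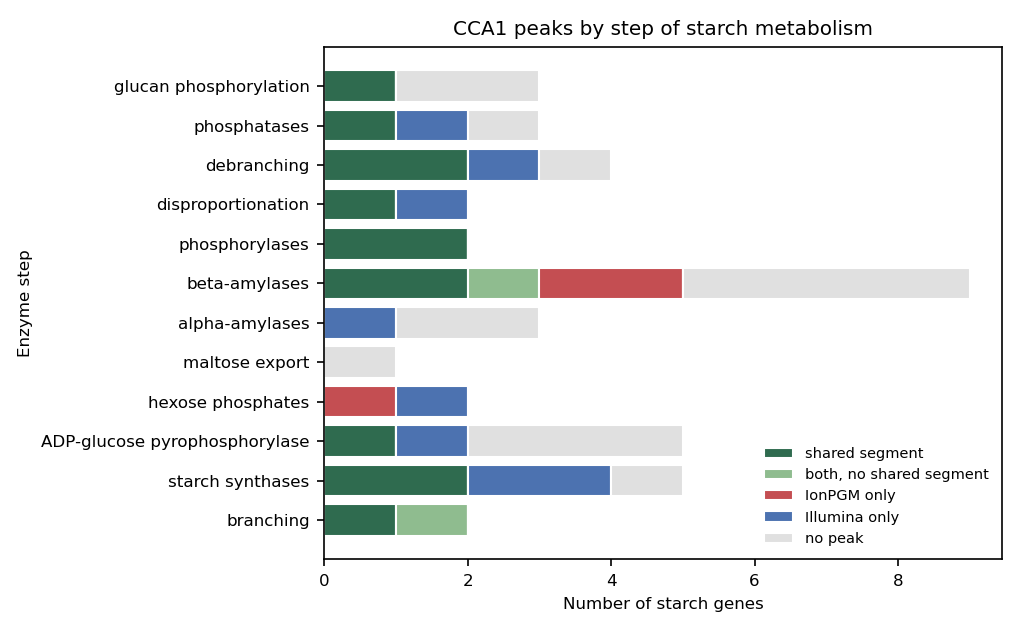
Each horizontal bar counts the starch genes of an enzyme step (horizontal axis, number of genes) by the kind of peak in their window. Both phosphorylase genes had a shared segment. Of the 9 beta-amylase genes 2 had a shared segment, 1 had unshared peaks of both lists, 2 had IonPGM peaks only and 4 had none. Over all genes 6.56% had a shared segment and 82.3% had no peak.

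The first enzymes of breakdown attach phosphate to the granule. GWD1 (AT1G10760, also SEX1), the glucan water dikinase that starts this step in leaves, had an IonPGM peak at chromosome 1, 3590506 to 3590750 (percentile 82.5), and an Illumina peak from 3590510 to 3591026 (percentile 72.7). The IonPGM peak lay inside the gene, 178 bp from its high-coordinate end, and the wider Illumina peak of 517 bp ran across that end. PWD (AT5G26570), which phosphorylates glucans already treated by GWD1, and GWD2 (AT4G24450), a related dikinase, had no peak. Of these 3 genes CCA1 peaks were therefore found at GWD1 alone (33.3%, against 17.7% of all genes with any peak).

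Phosphatases remove the same phosphate again. SEX4 (AT3G52180), a phosphoglucan phosphatase, had peaks of both lists across its high-coordinate end, with a shared segment on chromosome 3 from 19353640 to 19353862. Its percentile was 78.6 in the IonPGM list and 12.0 in the Illumina list, the widest gap of any shared site in the set. The neighbouring gene PHF1 lay 5 bp from the IonPGM peak and overlapped the Illumina peak. LSF1 (AT3G01510), a SEX4-like protein needed for normal breakdown, had an Illumina peak alone (percentile 31.5), 502 bp outside the gene, and that peak overlapped CA1, a carbonic anhydrase gene. LSF2 (AT3G10940), a second active phosphatase, had no peak.

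Among the debranching enzymes, ISA3 (AT4G09020), an isoamylase of breakdown, had a shared segment of 220 bp across its low-coordinate end, at chromosome 4, 5783780 to 5783999. Its percentile was 64.1 in the IonPGM list and 12.5 in the Illumina list. ISA1 (AT2G39930), the catalytic isoamylase that trims glucan during synthesis, had peaks of both lists outside its low-coordinate end, overlapping on chromosome 2 from 16665454 to 16665646. Its percentile was 82.3 in the IonPGM list and 29.0 in the Illumina list, and the centres of the peaks were 178 bp apart, farther than at any other shared site of the set. LDA (AT5G04360), the limit dextrinase, had an Illumina peak alone at percentile 63.4, starting 21 bp inside the gene. ISA2 (AT1G03310), the non-catalytic partner of ISA1, had no peak. At the shared isoamylase sites, then, the IonPGM percentile was the higher in both cases.

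The disproportionating enzymes pass glucan units between chains. DPE1 (AT5G64860), the plastid enzyme, was the single starch gene with 2 shared segments. The nearer lay across its high-coordinate end on chromosome 5, 25928836 to 25928973, with percentiles of 49.6 (IonPGM) and 32.0 (Illumina). The farther, at 25929189 to 25929408, lay 310 bp outside that end and stood higher, with percentiles of 90.3 (IonPGM) and 77.8 (Illumina). The end of the neighbouring gene AT5G64870 lay nearer to this farther segment than the end of DPE1 did. DPE2 (AT2G40840), the cytosolic enzyme that acts on exported maltose, had an Illumina peak alone, at percentile 83.4 across its low-coordinate end. That peak also overlapped the gene RHC1A.

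Both alpha-glucan phosphorylase genes had a shared segment, against 6.56% of all genes, and 2 genes are too few for a comparison. PHS1 (AT3G29320), the plastid enzyme, held the highest mean percentile of the set. Its IonPGM peak spanned 11252561 to 11252850 on chromosome 3 (percentile 94.6, rank 158 of 2901) and lay wholly within the Illumina peak of 11252316 to 11252870 (percentile 89.6, rank 309 of 2954). Both ran across the low-coordinate end of PHS1, and the closest other gene, AT3G29310, was 740 bp from the IonPGM peak and 495 bp from the Illumina peak. PHS2 (AT3G46970), the cytosolic enzyme, had its shared segment inside the gene, 46 bp from the high-coordinate end, at 17306295 to 17306587 on chromosome 3. Its percentile was 31.9 in the IonPGM list and 78.7 in the Illumina list although the peak centres were 4 bp apart, and the end of the neighbouring gene PHT4;3, a phosphate transporter gene, lay nearer to the segment than the end of PHS2.

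Beta-amylases release maltose. Of their 9 genes 5 (55.6%) had a peak, against 17.7% of all genes. A shared segment was found at 2 of the 9 (22.2%), against 6.56% of all genes. BAM5 (AT4G15210), an enzyme found outside the plastid, had a shared segment 38 bp outside its high-coordinate end (chromosome 4, 8669564 to 8669784; percentiles of 45.8 for IonPGM and 69.4 for Illumina), with no other protein-coding gene within 1000 bp. BAM7 (AT2G45880), a nuclear protein that joins a beta-amylase-like domain to a DNA-binding domain, had a shared segment inside the gene, 169 bp from its high-coordinate end (chromosome 2, 18882567 to 18882826; percentiles of 45.2 for IonPGM and 63.2 for Illumina). In both, the Illumina percentile was the higher.

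The remaining beta-amylase peaks did not overlap between lists. BAM1 (AT3G23920), a plastid enzyme active under stress and in guard cells, had a weak IonPGM peak inside the gene (percentile 1.72) and a strong Illumina peak 722 bp outside the opposite end (percentile 91.4), to which the gene AT3G23910 had a nearer end. BAM3 (AT4G17090), the main leaf enzyme of nightly breakdown, had 2 IonPGM peaks inside the gene, at percentiles 12.4 and 59.4, and no Illumina peak. BAM9 (AT5G18670), a catalytically inactive member, had an IonPGM peak of 758 bp inside the gene at percentile 82.9, the widest peak of either list in the set, and the gene AT5G18680 had a nearer end to its centre. BAM2 (AT4G00490), BAM4 (AT5G55700, another inactive member), BAM6 (AT2G32290) and BAM8 (AT5G45300, a relative of BAM7) had no peak. All 4 IonPGM peaks of BAM1, BAM3 and BAM9 lay inside the genes, where no Illumina peak was called.

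Of the alpha-amylase genes, AMY3 (AT1G69830), for the plastid enzyme, had an Illumina peak alone across its high-coordinate end, at percentile 45.6. AMY1 (AT4G25000) and AMY2 (AT1G76130) had none. MEX1 (AT5G17520), the maltose exporter of the chloroplast envelope, had no peak either.

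On the synthesis side, the plastid enzymes that supply glucose phosphate each had a peak in a different list. Any peak was found at 17.7% of all genes, and 2 genes are too few for a comparison. PGI1 (AT4G24620), phosphoglucose isomerase, had an Illumina peak across its high-coordinate end at percentile 72.4, with no other protein-coding gene within 1000 bp. PGM1 (AT5G51820), phosphoglucomutase, had an IonPGM peak 64 bp outside its high-coordinate end at percentile 62.8.

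ADP-glucose pyrophosphorylase makes the glucosyl donor and consists of small and large subunits. APL4 (AT2G21590), a large subunit gene, had the second highest mean percentile of the set. Its IonPGM peak at 9237997 to 9238370 on chromosome 2 (percentile 78.8) lay wholly within its Illumina peak at 9237972 to 9238448 (percentile 90.4). Both ran across the low-coordinate end of the gene. The closest other gene, AT2G21580, was 151 bp from the IonPGM peak and 126 bp from the Illumina peak. APL3 (AT4G39210), like APL4 a large subunit known mainly from sink tissues, had an Illumina peak alone, across its low-coordinate end at percentile 92.9 (chromosome 4, 18259341 to 18259646). APS1 (AT5G48300), the catalytic small subunit, APL1 (AT5G19220), the main large subunit of leaves, and APL2 (AT1G27680) had no peak. Of the 5 genes of this family, 1 (20%) had a shared segment and 2 (40%) any peak, against 6.56% and 17.7% of all genes. They are too few to set subunits against each other. APS2 (AT1G05610), a small subunit gene of the second list, had no peak either.

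Starch synthases extend the chains. GBSS1 (AT1G32900), the granule-bound synthase that makes amylose, had a shared segment across its high-coordinate end, at 11923763 to 11923950 on chromosome 1, with no other protein-coding gene within 1000 bp. Its percentile was 22.4 in the IonPGM list and 60.9 in the Illumina list. SS1 (AT5G24300), which elongates short chains, had the weakest shared site of the set, 59 bp outside its low-coordinate end on chromosome 5, 8266298 to 8266507, with percentiles of 22.9 (IonPGM) and 16.5 (Illumina). SS4 (AT4G18240), which acts in granule initiation, had an Illumina peak alone at percentile 78.5, and SS3 (AT1G11720) had an Illumina peak alone at percentile 29.4. Both of these peaks also overlapped the next gene, AT4G18230 at SS4 and AT1G11710 at SS3, whose ends were nearer to the peak centres. SS2 (AT3G01180) had no peak, and neither did SS5 (AT5G65685) of the second list.

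Branching enzymes add the branch points, and SBE2.1 and SBE2.2 had peaks of both lists. Of these 2 genes 1 (50%) had a shared segment, against 6.56% of all genes. The other had peaks of both lists that did not overlap, against 0.528% of all genes. Both counts are too small for a comparison. BE1 (AT3G20440), a related gene of the second list, had no peak. SBE2.1 (AT2G36390) had the strongest Illumina peak of the set, across its low-coordinate end at chromosome 2, 15263852 to 15264217 (percentile 93.1), and no IonPGM peak there. The gene ABCG34 lay 44 bp from this peak. The shared segment of SBE2.1 lay past the other end, 871 bp outside the gene at 15270963 to 15271175. Its percentiles were 59.9 (IonPGM) and 78.0 (Illumina). Both peaks overlapped the gene GRF3, and the count of SBE2.1 as shared rests on the width of the window. SBE2.2 (AT5G03650) had 3 peaks, all below percentile 50, that did not overlap. They were an IonPGM peak across its high-coordinate end (percentile 4.72) and Illumina peaks outside both ends (percentiles 41.7 and 10.4). The weaker of these Illumina peaks overlapped the gene AT5G03660, whose end was nearer to its centre.

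**Figure D3:**
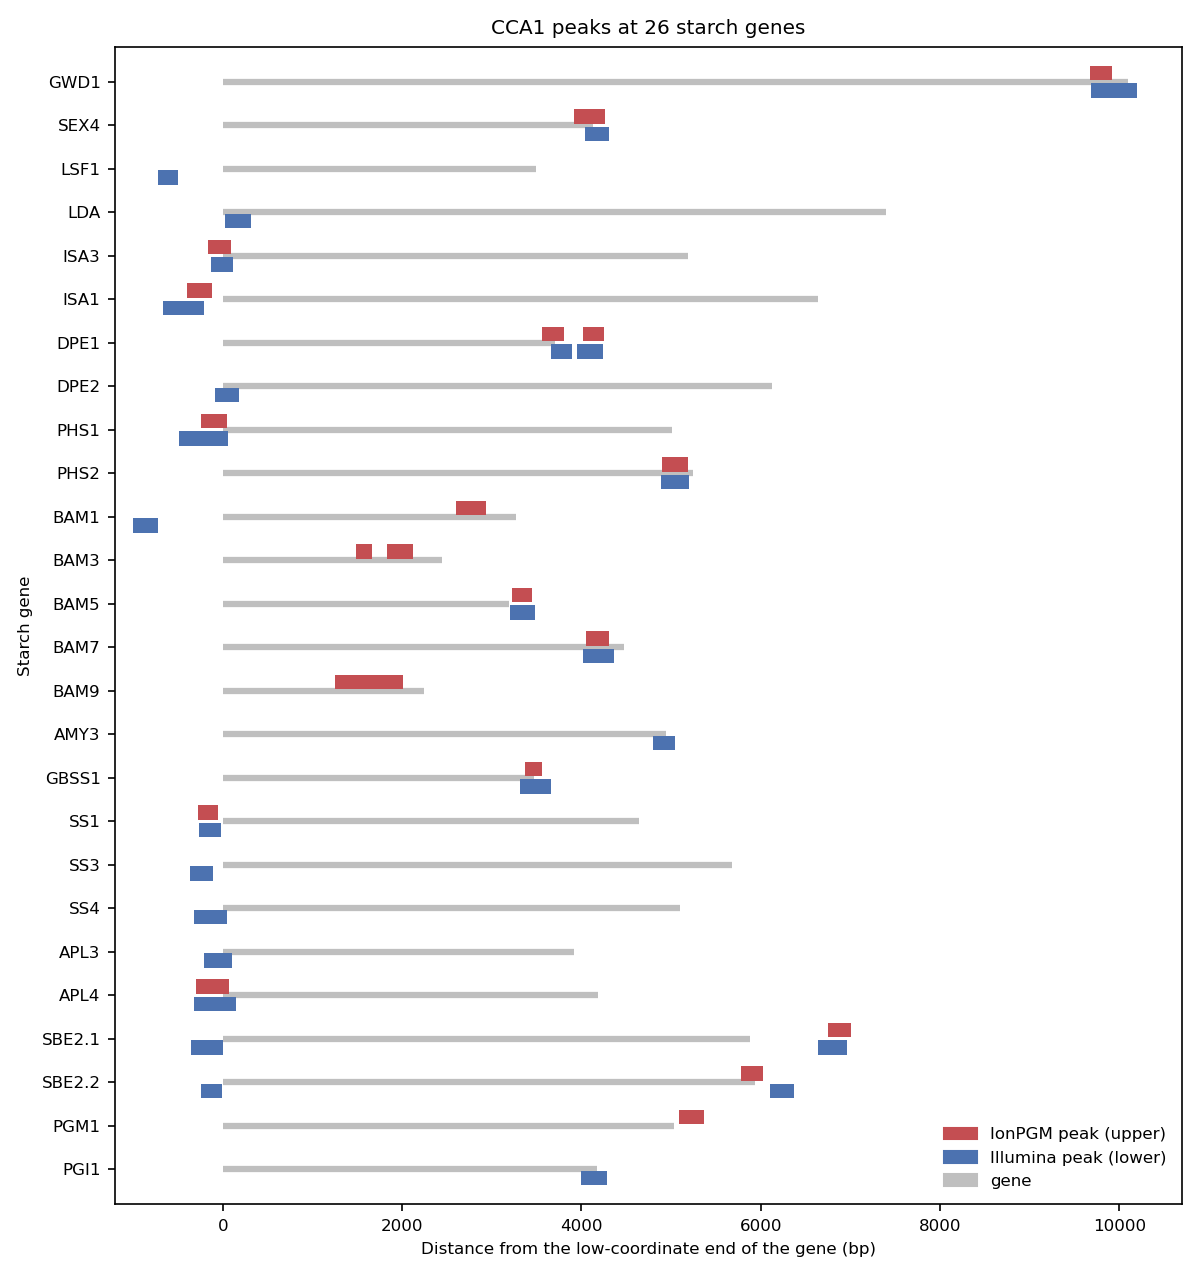
The map shows the 26 starch genes with a peak, each as a grey bar from its low-coordinate end (horizontal axis, distance in bp), with IonPGM peaks above and Illumina peaks below the bar. The centres of 16 of 20 IonPGM and 23 of 26 Illumina peaks lie within 500 bp of an end, and BAM3 and BAM9 carry IonPGM peaks inside the gene only.

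Of the 20 IonPGM peaks 16 (80%) had their centre within 500 bp of an end of the starch gene, against 58.6% of all 3654 pairs of a gene and an IonPGM peak in its window. Of the 26 Illumina peaks 23 (88.5%) did, against 64.7% of all 3736 pairs. Of the 14 shared segments 6 (42.9%) ran across an end, 5 (35.7%) lay outside and 3 (21.4%) lay inside the gene. Over all genes the shares were 24.4% across an end, 56.0% outside and 19.5% inside, among 1897 pairs of a gene and a shared segment, so the share inside the gene was near that of all genes. Inside starch genes lay 7 of 20 IonPGM peaks (35.0%) and 3 of 26 Illumina peaks (11.5%), against 27.6% and 17.5% over all genes. This difference between lists was not tested. The shared site of GWD1 counts as inside for its IonPGM peak and as across an end for its wider Illumina peak. Another protein-coding gene lay within 1000 bp of 15 of the 20 IonPGM peaks (75.0%) and 23 of the 26 Illumina peaks (88.5%), against 64.4% and 64.3% over all pairs, and the peaks alone do not say which gene a site belongs to. Another protein-coding gene had an end nearer to the centre than the starch gene had for 2 of the 14 shared segments (14.3%, the farther DPE1 segment and PHS2), against 33.3% of all pairs. For single peaks this held for 3 of 20 IonPGM peaks (15.0%) and 6 of 26 Illumina peaks (23.1%), against 33.6% and 33.2% of all pairs.

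Shared sites at starch genes were of middling score. Their median percentile was 62.0 in the IonPGM list and 66.3 in the Illumina list, against 63.4 and 65.2 for all 1499 nuclear pairs. Both percentiles were above 50 in 5 of 14 pairs (35.7%), against 47.8% of all pairs, and these were at PHS1, APL4, DPE1, GWD1 and SBE2.1. The IonPGM percentile was the higher in 8 of the 14 pairs (57.1%), against 46.6% of all nuclear pairs. Above percentile 90 of their list stood 2 of 20 IonPGM peaks (PHS1 and DPE1), against 291 of all 2901. The same held for 4 of 26 Illumina peaks (SBE2.1, APL3, BAM1 and APL4), against 296 of all 2954. Of these 4 Illumina peaks 3, at SBE2.1, APL3 and BAM1, overlapped no IonPGM peak, against 11.5% of all Illumina peaks above that percentile. Of the 2 IonPGM peaks 0 were unshared, against 27.5% of all IonPGM peaks above it. Both counts of starch peaks are too small for a comparison. At any score, 6 of 20 IonPGM peaks (30.0%) and 12 of 26 Illumina peaks (46.2%) at starch genes overlapped no peak of the other list, against 47.8% and 48.4% of all peaks.

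**Figure D4:**
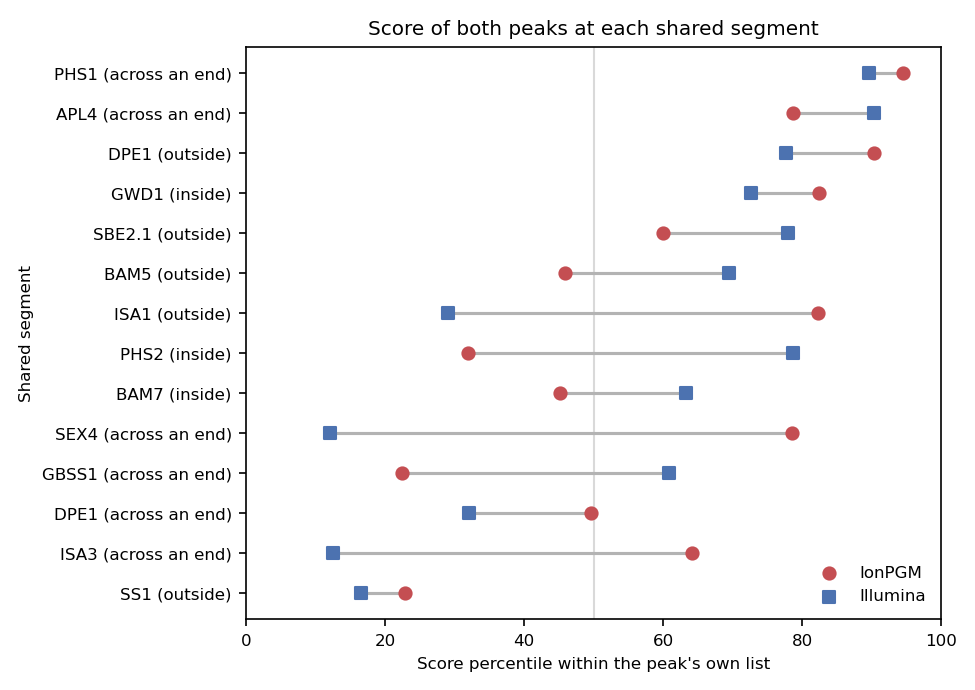
Each line joins the score percentiles (horizontal axis, 0 to 100 within the own list) of the IonPGM peak (circle) and the Illumina peak (square) at a shared segment, with its place relative to the gene. PHS1, APL4, the farther DPE1 segment, GWD1 and SBE2.1 lie above 50 in both lists, while SEX4, ISA1 and ISA3 stand higher in the IonPGM list and PHS2 and GBSS1 in the Illumina list.

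Widening the window to 2000 bp added 1 starch gene to each count, and dropping the extension removed 5 of 18 genes with an IonPGM peak, 7 of 23 with an Illumina peak and 4 of 13 with a shared segment. With 2000 bp on both sides, 19 starch genes had an IonPGM peak, 24 an Illumina peak and 14 a shared segment, against 16.1%, 17% and 8.89% of all genes. With the gene alone the numbers were 13, 16 and 9, against 6.35%, 6.31% and 2.96% of all genes. Just inside it, the Illumina peak of BAM1 began 722 bp and the IonPGM peak of SBE2.1 871 bp from the gene. Just outside it, LSF1 had an IonPGM peak at 1159 bp (percentile 47.3), ISA1 a second Illumina peak at 1295 bp (percentile 31.3), and BAM3 an Illumina peak at 1578 bp (percentile 37.3) beside an IonPGM peak at 1672 bp (percentile 48.9). When peaks of percentile 50 or below were left out, 11 starch genes kept an IonPGM peak, 15 an Illumina peak and 5 a shared segment, against 5.98%, 6.22% and 3.21% of all genes. With an overlap of at least 50% of both peaks, 11 starch genes had a shared segment, against 5.84% of all genes.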

How the data were processed

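Per the submitters' processing notes, reads were handled with Bowtie 0.12.7, SAMtools 0.1.18 and MACS2 on TAIR10. For the MACS2 version, peak threshold, control library and filters, nothing is stated (not given in the sources used here). Each deposited list holds the positions of the peaks of 1 sample and 1 score per peak, the authors' own value. The score was used only as a rank within its list.

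Peaks were read as 0-based intervals and are printed 1-based. Genes came from the NCBI RefSeq table on TAIR10.1, whose nuclear sequences are those of TAIR10, and none of its coordinates is printed. As a check, 35.6% of 1499 nuclear shared segments had their centre within 500 bp outside a gene, against 14.4% and 13.5% after shifts of -2000 and 2000 bp. The members and lists were chosen with earlier results of these data known. Every member is named. Where it has a shared segment, the position of the segment or of both its peaks is printed with both percentiles. The second list of 17 genes was counted as a list, and those of its genes that are named were chosen after their values were seen. No test was run, because each sequencer has 1 library. The planned motif search and the printing of promoter sequences were not run, because no genome or promoter sequence was used here. Counting was tested on peaks planted outside the high-coordinate end of genes far from any other gene. Peaks inside genes, across an end or beside a second gene were not covered by that test. Python 3.11.15, NumPy 2.4.6, pandas 2.3.3 and Matplotlib 3.10.9 were used.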

Additional observations from a re-analysis of the deposited data

How the results depend on the processing

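No paired analysis was possible because each sequencer has 1 library and no test was made. Leaving out peaks of percentile 50 or below lowered the starch genes with an IonPGM peak to 11, those with an Illumina peak to 15 and those with a shared segment to 5. Under the other 4 alternatives for each list, and 6 for shared segments, counts stayed within 1.5 times: 13 to 19 genes (IonPGM), 16 to 24 (Illumina) and 9 to 14 (shared). The lowest came from the gene without extension, where ISA1, BAM5, SS1 and SBE2.1 lost their shared segment, and the highest from 2000 bp, where BAM3 gained one. Requiring the overlap to cover 50% of both peaks removed GWD1 and ISA1. With read depth unknown, a gene without a peak is not shown to lack CCA1.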
